A study of Mus musculus with 27 samples.

Results

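Cytoplasmic ribosomal protein genes were selected by symbol from the expression tables, as every row whose symbol is Rpl or Rps followed by a number and at most 1 letter, or is Rplp0, Rplp1, Rplp2 or Rpsa. The rule used no measured value and found 80 of 20156 rows. They comprise 31 proteins of the small subunit, 42 of the large subunit, the 3 proteins of the stalk and 4 paralogs, Rpl3l, Rpl10l, Rpl39l and Rps27l. The 76 genes other than the paralogs are called established subunits here. Genes whose symbols have another form, such as Fau, a fusion with a ubiquitin-like protein, fall outside the rule and are described separately.

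The study followed mouse embryonic fibroblasts (MEFs) that were reprogrammed with retroviral Oct4, Sox2, Klf4 and c-Myc to partially reprogrammed cells (pre-iPSCs) and to induced pluripotent stem cells (iPSCs). MEFs came from embryos of day 13.5 that carried a hemizygous Oct4-GFP transgene and a Rosa26 allele. Per the paper, the embryos came from a cross between mouse strains, and the reprogrammed cells were induced from such MEFs. Pre-iPSCs and iPSCs were grown on feeder MEFs inactivated with mitomycin C, in medium with LIF. They were passaged 6 times before RNA-seq. MEFs were grown in a fibroblast medium, for which the paper lists no LIF, and had fewer passages. Medium, feeders and passage therefore cannot be told apart from cell type in a comparison with MEFs. The paper used 2 stable clones of pre-iPSCs and the iPSCs that belong to them. The clone behind each library was not given in the sources used here, so replicates of a cell type may come from different clones. RNA was sequenced in 2 replicates of each cell type. Mononucleosomes released by micrococcal nuclease (MNase) were immunoprecipitated in 2 replicates of each cell type for histone H3, H3K4me3 and H3K27me3, and in 1 for H3K9me3. The MNase dose and digestion time of MEFs differed from those of the other cells, so a difference from MEFs in H3 or in a mark cannot be told apart from the digestion.

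The ribosome reads mRNA on its small subunit and forms peptide bonds on its large subunit, and each contains a single copy of nearly every ribosomal protein, so that these genes need matched output. In mammals they are transcribed from CpG-rich promoters in almost every cell, and their mRNAs typically begin with a C followed by a run of pyrimidines, the terminal oligopyrimidine or TOP motif, through which the mTOR pathway regulates their translation. Because their spliced mRNAs are abundant and have been copied back into the genome many times, these genes also have many processed pseudogenes.

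The sequence at the transcription start was read from the mm9 genome at the starts given in the tables, and the sequences below run from 40 bases before the start through the 20 bases that begin with it. The capitals mark the run of C and T that includes the annotated start base, or that base alone where it is A or G. The first group shows 6 of the 7 genes with the longest runs. Rpl32 ties with the last 2 at 17 letters and comes after them by symbol.
Rpl7a, chr2:26766287-26766346, plus strand: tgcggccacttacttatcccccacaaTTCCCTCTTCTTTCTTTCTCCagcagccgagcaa
Rpl27a, chr7:116662669-116662728, plus strand: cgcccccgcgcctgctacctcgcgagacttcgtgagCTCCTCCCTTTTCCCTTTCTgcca
Rpl29, chr9:106331830-106331889, plus strand: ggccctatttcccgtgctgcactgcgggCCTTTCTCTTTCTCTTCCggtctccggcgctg
Rpl35, chr2:38860632-38860691, minus strand: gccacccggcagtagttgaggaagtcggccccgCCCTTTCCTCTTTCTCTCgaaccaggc
Rpl11, chr4:135609267-135609326, minus strand: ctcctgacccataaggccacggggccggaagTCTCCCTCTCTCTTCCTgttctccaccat
Rpl15, chr14:19103481-19103540, minus strand: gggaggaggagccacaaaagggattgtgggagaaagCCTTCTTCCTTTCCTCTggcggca

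The longest run, at Rpl7a, had 21 letters, and the run at Rpl27a had 20. The second group pairs 3 paralogs, on which the expression results turn, with their established counterparts, and adds Rps23.
Rpl39, chrX:34625160-34625219, minus strand: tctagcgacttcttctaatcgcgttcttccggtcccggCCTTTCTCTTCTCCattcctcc
Rpl39l, chr16:10170281-10170340, plus strand: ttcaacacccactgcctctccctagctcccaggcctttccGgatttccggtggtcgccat
Rpl10, chrX:71516115-71516174, plus strand: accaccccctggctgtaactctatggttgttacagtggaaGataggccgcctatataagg
Rpl10l, chr12:67385369-67385428, minus strand: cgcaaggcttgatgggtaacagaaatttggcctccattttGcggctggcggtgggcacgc
Rpl3, chr15:79913817-79913876, minus strand: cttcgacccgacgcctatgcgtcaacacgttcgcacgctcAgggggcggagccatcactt
Rpl3l, chr17:24864734-24864793, plus strand: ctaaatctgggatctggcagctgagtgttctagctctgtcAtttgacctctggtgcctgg
Rps23, chr13:91062687-91062746, plus strand: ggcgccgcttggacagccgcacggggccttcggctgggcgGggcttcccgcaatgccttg

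Of these pairs Rpl39 alone had a pyrimidine run at the annotated start, of 14 letters, and its paralog Rpl39l had a G there. Runs of C and T were read on the sense strand, which has the sequence of the mRNA. A run of at least 8 letters that included the start base was present at 21 of the 80 ribosomal protein genes (26.2%). It was present at 5.03% of the 934 other genes in the highest 5% by expression and at 3.18% of the remaining 19142 genes. A run of at least 12 letters was present at 12 ribosomal protein genes (15.0%) and at 1.22% of the remaining genes. The annotated start base was a C in 22 ribosomal protein genes (27.5%) and a pyrimidine in 33 (41.2%), against 15.3% and 24.5% of the remaining genes.

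The annotated starts are those of RefSeq transcripts and can lie some bases from the main start in these cells, which bears on each of these shares. When the run was allowed to meet any base within 5 bp of the start, 30 ribosomal protein genes (37.5%) and 8.99% of the remaining genes held one. The letters TATAA on the sense strand, from 40 to 16 bp before the start, were found at 8 ribosomal protein genes (10.0%). They were Rps9, Rps20, Rps26, Rps27, Rps27a, Rps28, Rpl7 and Rpl23a. Of the remaining genes, 4.16% held these letters. The promoters of ribosomal protein genes had a median ratio of observed to expected CpG of 0.81, against 0.77 for the other highly expressed genes and 0.58 for the remaining genes. The ratio was above 0.6 at 77 of the 80 (96.2%), at 84.5% of the other highly expressed genes and at 48.3% of the remaining genes.

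Chromosome 7 held 14 of the genes (17.5%, against 9.33% of all genes), and Rpl10, Rpl36a, Rpl39 and Rps4x are X-linked. Another gene started within 1000 bp of 12 of them (15.0%, against 9.83% of the other genes). All of these neighbours except Gm9846 and Rpl34-ps1 ran the other way, as Med22 does 165 bp upstream of Rpl7a and Lias 66 bp upstream of Rpl9. Gm9846 starts 1 bp from Rps27 on the same strand and covers 99.9% of it. Rpl34-ps1 starts 21 bp upstream of Rpl34, also on the same strand, and covers 99.8% of it. Reads of either pair could belong to both rows of the expression tables, and how they were divided was not given in the sources used here, so the FPKM of Rps27 and Rpl34 are uncertain. On the other strand, 1700034F02Rik starts 90 bp downstream of the start of Rps27a. Whether reads were assigned by strand was not given either, and the row of 1700034F02Rik held at most 0.249 FPKM in any library.

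Expression was deposited as FPKM, fragments scaled to transcript length and to the mapped fragments of the library, in 2 tables. Each table was computed separately and holds 1 library of every cell type, replicate 1 in the first and replicate 2 in the second. Pairs of values are for replicate 1 and replicate 2, respectively. The FPKM tables give no read depth. The smallest p that an exact permutation test of 2 libraries against 2 allows is 0.33, so tests rest on limma fitted across 12401 genes, and their p-values measure the spread between these libraries. In these bulk libraries, less RNA per cell and fewer cells of a kind could not be told apart.

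Ribosomal protein mRNAs took a large share of the measured transcripts in every library. Together the 80 genes held 18.2% and 29.1% of the summed FPKM of all genes in the MEF libraries, 24.5% and 32.1% in those of pre-iPSCs, and 31.3% and 28.4% in those of iPSCs. The cell types overlapped, and the replicates of MEFs differed from each other by more than the replicates of iPSCs. The median gene of the set stood at 1022 and 2577 FPKM in the MEF libraries, 1087 and 1829 in those of pre-iPSCs, and 1361 and 1257 in those of iPSCs, where the median over all genes was between 1.22 and 1.73 FPKM. Between 66 and 71 of the 80 genes were among the highest 1% of all genes in each library.

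**Figure D1:**
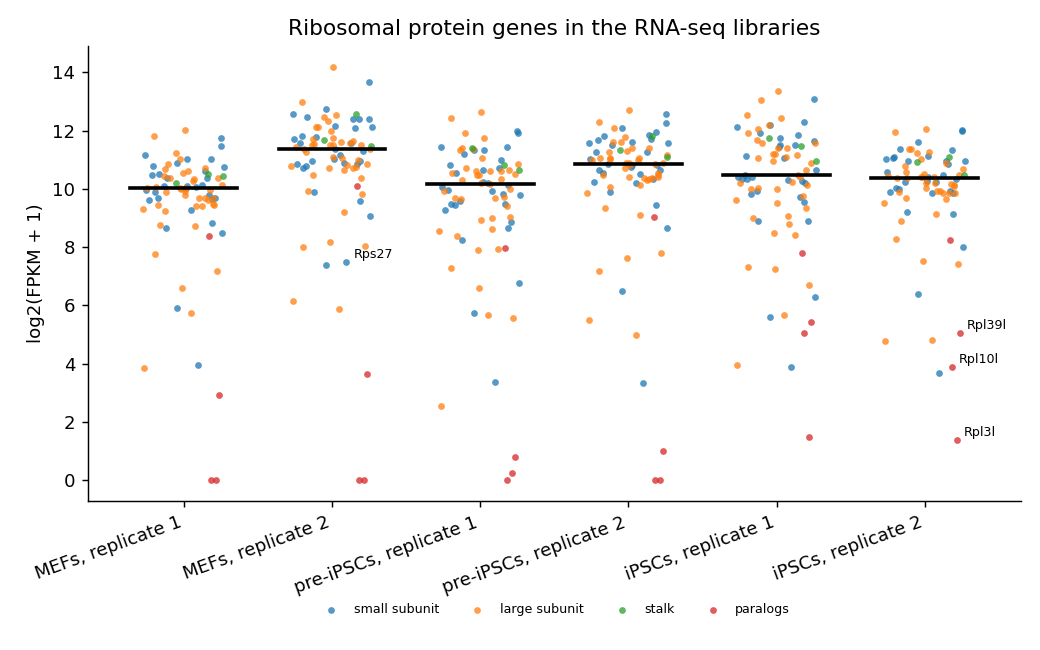
FPKM of the ribosomal protein genes on a log2(FPKM + 1) axis in the 6 RNA-seq libraries, with 1 point per gene coloured by kind and a bar at the median of the 76 established subunits. The medians lie at 10.02 and 11.36 in the MEF libraries, 10.18 and 10.87 in those of pre-iPSCs, and 10.48 and 10.36 in those of iPSCs on that axis, and the points of the paralogs other than Rps27l lie far below the medians.

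The level of the set moved between replicates of 1 cell type as much as between cell types. In MEFs all 76 established subunits were higher in replicate 2, by a median of 1.25 on the log2 scale (2.39-fold). In pre-iPSCs 64 of 76 were higher in replicate 2, with a median of 0.73 (1.66-fold), and in iPSCs 26 of 76 were, with a median of -0.33. The other genes in the highest 5% had medians of 0.58, -0.02 and -0.35 in the same order. Without regard to sign, the median gap was 1.25, 0.73 and 0.66 in the established subunits, 0.77, 0.40 and 0.52 in the other genes of the highest 5%, and 0.54, 0.41 and 0.35 over all genes tested. The order of the established subunits by FPKM was better kept than their level, with Spearman coefficients between pairs of libraries from 0.75 to 0.97 across these 76 genes, which share library and depth.

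Small and large subunit genes stood at similar levels in each library. The median FPKM of the 31 small subunit genes was 1087 and 2643 in the MEF libraries, 1058 and 1856 in those of pre-iPSCs, and 1367 and 1355 in those of iPSCs. The median of the 42 large subunit genes was 995 and 2539, 1160 and 1829, and 1388 and 1174. In both groups the highest median belonged to replicate 2 of MEFs and the low ones to replicate 1 of MEFs and of pre-iPSCs.

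Within a library the established subunits differed widely. Rpl41, the smallest and most basic of the ribosomal proteins, was the highest of the set in every library, at 4174 and 18740 FPKM in the MEF libraries, 6431 and 6746 in those of pre-iPSCs, and 10614 and 4270 in those of iPSCs. It alone took between 0.848% and 2.29% of the summed FPKM. The next were Rps26, which lies at the mRNA exit channel, Rpl23a, which lines the rim of the peptide exit tunnel, Rps12 and Rpl28.

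Rps26 was measured at 3394 and 12912 FPKM in the MEF libraries, 3827 and 6013 in those of pre-iPSCs, and 8768 and 4020 in those of iPSCs. Rpl23a was at 3576 and 8149, 5585 and 5025, and 5954 and 3911 FPKM, and Rps12 at 2857 and 5420, 4019 and 4945, and 3210 and 4172. Rpl28 was at 1854 and 4405, 3886 and 3156, and 8476 and 2644 FPKM. For each of these genes the cell types overlapped. In Rps26 and Rpl28 the gap between the replicates of iPSCs exceeded 2-fold, with replicate 1 higher, while in MEFs replicate 2 was higher.

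By their own rows, Rps27 and Rpl34 were among the lowest established subunits. Rps27, a zinc finger protein of the small subunit, was at 14.7 and 179 FPKM in the MEF libraries, 9.31 and 9.20 in those of pre-iPSCs, and 13.7 and 11.8 in those of iPSCs. Rpl34 was at 52.7 and 58.2, 50.3 and 30.4, and 50.5 and 27.2 FPKM.

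The rows that overlap Rps27 and Rpl34 on the same strand held far more. Gm9846, which covers Rps27, was at 1952 and 6894 FPKM in the MEF libraries, 2340 and 3992 in those of pre-iPSCs, and 6646 and 3290 in those of iPSCs. Rpl34-ps1, which covers Rpl34, was at 1329 and 3427 FPKM, 2683 and 2239, and 2138 and 1636. At each of these loci the level of the 2 rows together was thus that of an abundant ribosomal protein mRNA in every library, and the low values of Rps27 and Rpl34 hold for their rows and not for their loci. No other ribosomal protein gene was overlapped by another row on its own strand.

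Sequence copied elsewhere was measured in mm9 as the percent of a transcript's 50-base windows with an identical copy elsewhere in the genome. Over the 75 established subunits with a transcript model the median was 70.6%, with 55 genes above 50% and 13 above 90%. It was 99.7% for Rps27, 64.0% for Rpl34 and 89.2% for Rps23. Rpl3 was at 91.2%. Across the 75 genes the Spearman coefficient of this share with the mean level was 0.08. Per the study's methods, RNA-seq reads entered the FPKM only where they mapped uniquely, and what this did to members with many copies was not tested. By mean level, Rps12, at 98.1%, and Rpl23a, at 94.5%, were among the highest of the set. Rps27, at 99.7%, was among the lowest established subunits by its own row.

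The first comparison asked how expression changed when MEFs became pre-iPSCs. The test was limma on log2(FPKM + 1) with the table as a term, and genes counted as called when the p adjusted over 12401 genes (Benjamini-Hochberg) was below 0.05 and the change at least 2-fold. Of the 80 ribosomal protein genes 1 was called, Rpl39l, which was lower (1.25%), where 16.4% of all genes tested were called, 916 of them higher and 1116 lower. At an unadjusted p below 0.05 limma gave 0 higher and 3 lower. Such unadjusted counts were not made over all genes, here or for the promoters below, and are given as a description. The median change of the set was -0.23, against -0.04 over all genes tested and -0.32 over the other genes in the highest 5%.

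From pre-iPSCs to iPSCs, 3 of the 80 genes were called (3.75%), Rpl10l, Rpl39l and Rpl3l, each of them higher, against 8.62% of all genes tested, 485 higher and 584 lower. The same 3 had an unadjusted p below 0.05 by limma, and no gene of the set did so in the lower direction. Rpl10l and Rpl3l passed the filter on low values, a mean of 0.5 FPKM, through the libraries of iPSCs alone, so that they had to differ if they were tested, and their calls are given as a description. The median change of the set was 0.03, against -0.09 over all genes tested.

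Between iPSCs and MEFs, the same 3 paralogs were called higher and Rps23 was called lower (5.00%), against 25.9% of all genes tested, 1279 higher and 1927 lower. The calls of Rpl10l and Rpl3l are again a description, since both passed the filter through the libraries of iPSCs alone. The median change of the set was -0.17, against -0.14 over all genes tested.

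The tables gave the set opposite directions in both comparisons with iPSCs. From MEFs to pre-iPSCs, 43 of the 80 genes were higher in the first table and 5 in the second. In the first table the median change was 0.03 from MEFs to pre-iPSCs, 0.58 from pre-iPSCs to iPSCs and 0.54 from MEFs to iPSCs. In the second table the same medians were -0.49, -0.47 and -1.01. Of the 80 genes, 60 were higher in iPSCs than in MEFs in the first table and 5 in the second. Only 4 were higher in both tables and 19 were lower in both. Of all 12401 genes tested, 3741 were higher in both and 4918 lower in both. Among the 934 other genes in the highest 5%, these counts were 159 and 381.

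From MEFs to pre-iPSCs 5 genes were higher in both tables and 36 were lower in both, and from pre-iPSCs to iPSCs the counts were 6 and 7. Over all 12401 genes tested the counts were 4206 and 4747, and 3530 and 4729. Among the 934 other genes in the highest 5% they were 179 and 443, and 222 and 302. The other genes in the highest 5% had medians of -0.05 and -0.66 from MEFs to pre-iPSCs and of 0.10 and -0.94 from MEFs to iPSCs. From MEFs to iPSCs, small subunit, large subunit and stalk genes shared the pattern, with medians of 0.46 and -1.02, 0.59 and -1.02, and 0.95 and -1.02. From MEFs to pre-iPSCs the medians of the small subunit genes were below 0 in both tables, at -0.12 and -0.44. Those of large subunit and stalk genes differed in sign. The transcript GC content of the members and their change from MEFs to iPSCs had a Spearman coefficient of 0.41 in the first table and 0.03 in the second across 79 genes (0.22 and -0.04 over all genes). The part of GC content in the gap between the tables was not tested.

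**Figure D2:**
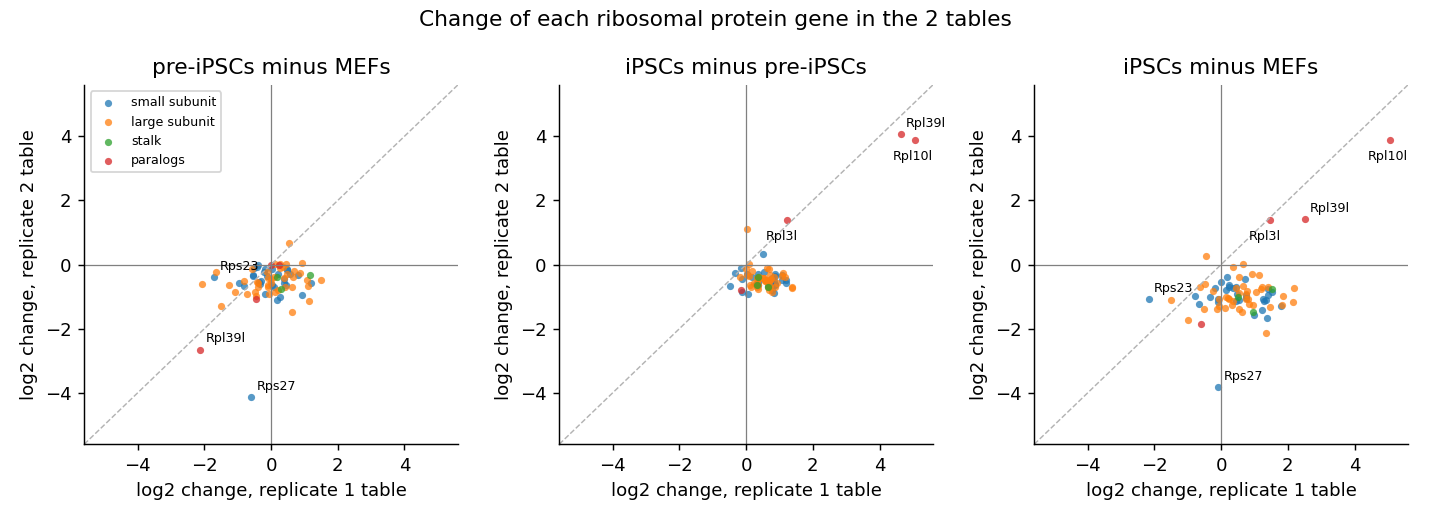
Log2 change of each ribosomal protein gene on log2(FPKM + 1), the first table on the horizontal and the second on the vertical axis, with 1 panel per comparison and points coloured by kind. From MEFs to iPSCs 60 of 80 points lie right of 0 and 5 lie above 0, and Rpl10l, Rpl39l and Rpl3l lie in the upper right.

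The direction of the set's median from MEFs also turned with the scaling. With FPKM rescaled to a fixed sum per library (TPM) the median change was 0.20 from MEFs to pre-iPSCs and 0.31 to iPSCs, where the median over all genes moved to 0.29 and 0.27. With quantile normalization it was 0.23 and 0.26, where the median over all genes was 0.00 and 0.03. The rescaling to TPM also moved the split of calls over all genes from 916 higher and 1116 lower to 1003 and 571 in pre-iPSCs against MEFs, from 485 and 584 to 580 and 459 in iPSCs against pre-iPSCs, and from 1279 and 1927 to 1546 and 921 in iPSCs against MEFs.

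Markers of the cell types were checked against the labels. The 12 fibroblast markers summed to 9713 and 16792 FPKM in the MEF libraries, 1525 and 1525 in those of pre-iPSCs, and 510 and 730 in those of iPSCs, and every one of them was above 0 in every library. The sums rest on the most abundant markers. From pre-iPSCs to iPSCs the median change of the 12 was -0.61 in the first table and 0.82 in the second, and only S100a4 was called, lower. The 12 pluripotency markers summed to 0.147 and 1.03, 927 and 3709, and 2484 and 2419 FPKM, and 10 and 8 of them were listed at 0 in MEFs. Replicate 2 of pre-iPSCs was thus above both libraries of iPSCs in that sum. Pou5f1, which encodes Oct4, held 378 and 3184 FPKM of it in pre-iPSCs and 586 and 397 in iPSCs, and Pou5f1 and Sox2 are among the factors introduced by retrovirus. Nanog, which was not introduced, was at 0.519 FPKM and listed at 0 in pre-iPSCs, and at 49.5 and 73.6 in iPSCs. Both lists contain genes by which the labels were checked, and the part of feeder MEFs in the fibroblast markers of pre-iPSCs and iPSCs was not tested.

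Among the small subunit genes, Rps23, which lies at the decoding centre, was the only established subunit called in any comparison. It was at 354 and 530 FPKM in the MEF libraries (442 ± 124, SD, n = 2), 109 and 402 in those of pre-iPSCs (255 ± 208), and 77.9 and 253 in those of iPSCs (165 ± 124). In each table iPSCs were lowest and MEFs highest, and both libraries of iPSCs were below both of MEFs. The change from MEFs to iPSCs was -1.62 ± 0.49 (SE; adjusted p = 0.0469, limma). The call was lost under TPM, quantile normalization, a GC correction, no filter on low values and no table term (adjusted p from 0.0650 to 0.262, limma). The change was still -1.62 without the filter and without the table term, and it was -1.42 with the GC correction, -1.14 under TPM and -0.92 under quantile normalization. The call was also lost in 5 of 6 fits that each left out 1 library.

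Rps6, the substrate of S6 kinase, was at 776 and 1833 FPKM in the MEF libraries, 622 and 1215 in those of pre-iPSCs, and 1303 and 958 in those of iPSCs. Rps19, which is mutated in Diamond-Blackfan anaemia, was at 400 and 950, 302 and 940, and 477 and 588 FPKM. Rpsa, also known as the laminin receptor, was at 954 and 1697, 719 and 1620, and 1292 and 1042. All 3 overlapped between the cell types, with changes from MEFs to iPSCs of -0.09, -0.22 and -0.13.

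Rps27a, which is made as a fusion with ubiquitin, was at 821 and 2529 FPKM in the MEF libraries, 466 and 1584 in those of pre-iPSCs, and 474 and 1284 in those of iPSCs. It was lower than in MEFs in both tables, by -0.79 and -0.98 in iPSCs, but replicate 1 of MEFs lay below replicate 2 of the other cells, and the fitted change of -0.88 ± 0.58 did not pass (adjusted p = 0.304, limma). For Rps27 the fitted change from MEFs to pre-iPSCs was -2.37 ± 0.84 (adjusted p = 0.102, limma). It rested on replicate 2 of MEFs, with -0.60 in the first table and -4.14 in the second. When the FPKM of Rps27 and Gm9846 were added, the changes were 0.26 and -0.82, so that the tables differed in sign at this locus.

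Among the large subunit genes, Rpl5 and Rpl11, which form a particle with 5S rRNA and bind Mdm2, differed in their spread. Rpl5 was at 421 and 586 FPKM in the MEF libraries, 512 and 547 in those of pre-iPSCs, and 539 and 556 in those of iPSCs, and the means, 503 ± 117, 530 ± 25.2 and 548 ± 12.1 (SD, n = 2), differed by less than the spread in MEFs. Rpl11 was at 1049 and 2740, 982 and 2045, and 1171 and 1374 FPKM. Rpl38, which is needed for the translation of a subset of Hox mRNAs, was at 1560 and 5882, 3464 and 2696, and 5554 and 2443. Its change from MEFs to iPSCs was 1.83 in the first table and -1.27 in the second.

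Rpl3, a protein close to the peptidyl transferase centre, was higher in pre-iPSCs than in MEFs in both tables. It was at 703 and 900 FPKM in the MEF libraries, 1018 and 1435 in those of pre-iPSCs, and 1117 and 918 in those of iPSCs. The change from MEFs to pre-iPSCs was 0.60 ± 0.60 and did not pass (adjusted p = 0.556, limma). Of the other large subunit genes that enter the chromatin results, Rpl7a was at 1043 and 1683, 1416 and 1699, and 2322 and 1357 FPKM.

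The stalk, which recruits elongation factors to the ribosome, is built from Rplp0 and copies of Rplp1 and Rplp2. Rplp0 was at 1405 and 2853 FPKM in the MEF libraries, 1598 and 2170 in those of pre-iPSCs, and 2007 and 1406 in those of iPSCs. Rplp1 was at 1460 and 6048, 1795 and 3561, and 2826 and 2170, and Rplp2 at 1181 and 3267, 2683 and 2572, and 3445 and 1946. In the first table all 3 had higher values at each step, in the second lower values at each step, and none passed the test in any comparison.

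The 4 X-linked genes were lower in pre-iPSCs than in MEFs in both tables. Their median change was -0.49 in the first table and -0.84 in the second, against 0.03 and -0.49 for the whole set, and none passed the test. Rpl10, a late-joining protein of the large subunit, was at 1508 and 4062 FPKM in the MEF libraries, 1430 and 2495 in those of pre-iPSCs, and 2331 and 1447 in those of iPSCs. Rpl39, which lines the exit tunnel, was at 680 and 3080, 241 and 1250, and 341 and 936. Its change was -1.40 ± 0.57 from MEFs to pre-iPSCs (adjusted p = 0.144, limma) and -1.36 ± 0.57 to iPSCs (adjusted p = 0.122).

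The paralogs Rpl10l and Rpl39l, autosomal counterparts of Rpl10 and Rpl39 that are best known from the male germ line, were highest in iPSCs. Rpl10l was listed at 0 in both libraries of MEFs and of pre-iPSCs and was at 32.3 and 13.8 FPKM in iPSCs. The difference on the log2(FPKM + 1) scale, which understates the change of low genes, was 4.47 ± 0.41 from pre-iPSCs (adjusted p = 0.00178, limma) and 4.47 from MEFs (adjusted p = 9.91e-04). Rpl10l entered the test through the libraries of iPSCs alone, so these values are a description.

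Rpl39l fell and then rose. It was at 6.58 and 11.5 FPKM in the MEF libraries (9.04 ± 3.47, SD, n = 2), 0.741 and 0.993 in those of pre-iPSCs (0.867 ± 0.178), and 42.2 and 32.2 in those of iPSCs (37.2 ± 7.12). The 3 cell types did not overlap. On the log2(FPKM + 1) scale the change was -2.39 ± 0.40 from MEFs to pre-iPSCs (adjusted p = 0.00886, limma), 4.35 from pre-iPSCs to iPSCs (adjusted p = 0.00181) and 1.96 from MEFs to iPSCs (adjusted p = 0.0130).

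Without replicate 2 of pre-iPSCs the change of Rpl39l from MEFs to pre-iPSCs was -2.40 but did not pass (adjusted p = 0.0573, limma). It lost its calls in iPSCs without either library of iPSCs, where the lone library is assumed to vary like the others. In iPSCs its level was a small part of that of Rpl39, at 42.2 and 32.2 against 341 and 936 FPKM.

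Rpl3l, the paralog of Rpl3 in skeletal and heart muscle, was listed at 0 in both libraries of MEFs. It was at 0.179 FPKM in replicate 1 of pre-iPSCs, listed at 0 in replicate 2, and at 1.79 and 1.60 FPKM in iPSCs. The libraries of iPSCs were above all the others, at a level below that of every established subunit. Rpl3l entered the test through the libraries of iPSCs alone, so its calls are given as a description. The change was 1.31 ± 0.27 from pre-iPSCs (adjusted p = 0.0273, limma) and 1.43 from MEFs (adjusted p = 0.00951), and both calls were lost without either library of iPSCs. The call from pre-iPSCs was also lost without replicate 2 of pre-iPSCs (1.22, adjusted p = 0.0734, limma). Without a filter on low values, which brings 20156 genes into the test, Rpl39l and Rpl10l lost their calls in every comparison in which they had one (adjusted p from 0.0537 to 0.119, limma). The calls over all genes were then 0 in pre-iPSCs against MEFs, 107 up and 63 down in iPSCs against pre-iPSCs, and 283 up and 266 down in iPSCs against MEFs.

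Rps27l, which is induced by p53, was lowest in iPSCs in each table, where the other paralogs were highest. It was at 336 and 1094 FPKM in the MEF libraries, 247 and 525 in those of pre-iPSCs, and 222 and 305 in those of iPSCs. It was lower at each step in both tables, and both libraries of iPSCs lay below both of MEFs. The change from MEFs to iPSCs was -1.22 ± 0.51 and did not pass (adjusted p = 0.122, limma). In every library the row of Rps27l was above that of Rps27 but below that of Gm9846, which covers the same locus.

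**Figure D3:**
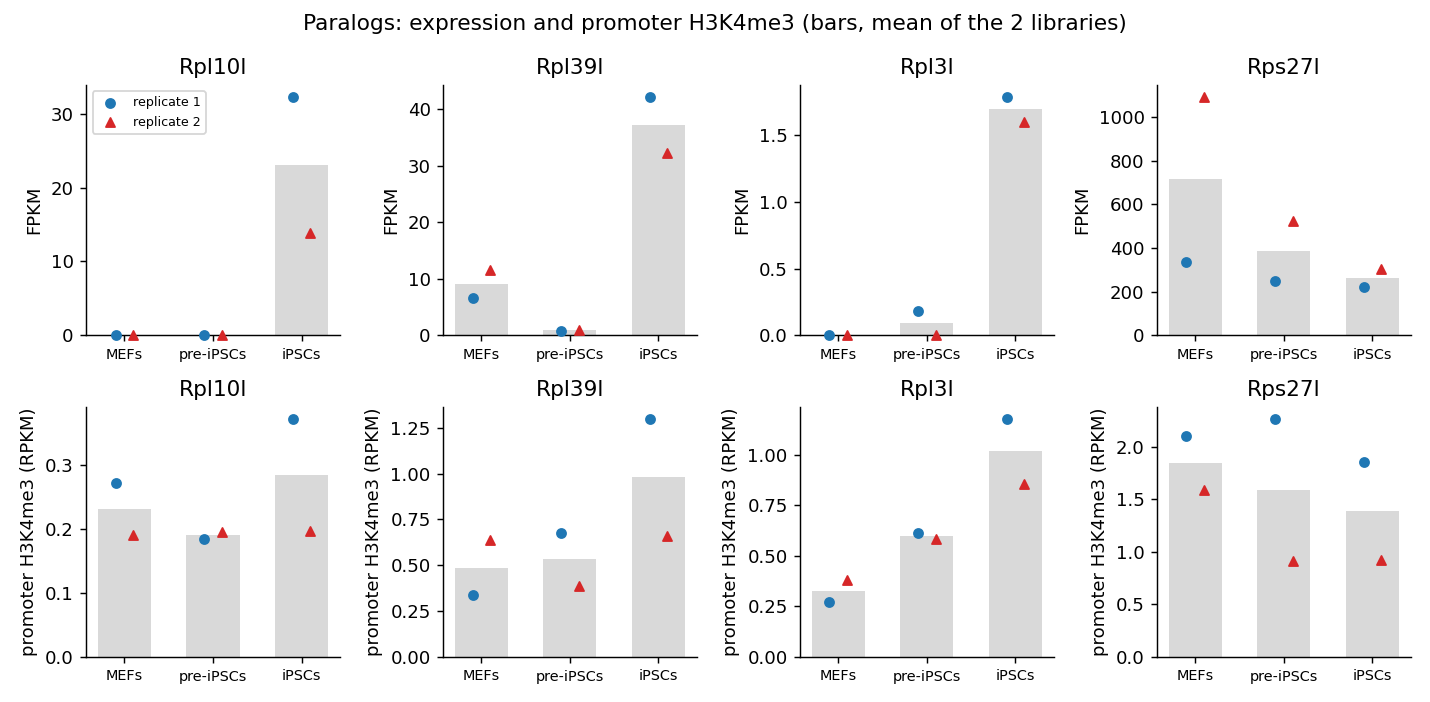
FPKM (upper row) and promoter H3K4me3 in RPKM (lower row) of Rpl10l, Rpl39l, Rpl3l and Rps27l by cell type, with 1 point per library and grey bars at the mean of the 2 libraries, on linear axes that start at 0. Rpl10l leaves 0 only in iPSCs, at 32.3 and 13.8 FPKM, while its H3K4me3 in those libraries, 0.372 and 0.197 RPKM, overlaps that of MEFs, 0.271 and 0.191 RPKM.

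The share of copied sequence was also measured for the paralogs. None of the 50-base windows of Rpl3l or Rpl39l had an identical copy elsewhere in mm9, and 26.3% of those of Rpl10l did. For Rps27l the share was 17.9%. The established counterparts stood at 91.2% for Rpl3, 94.3% for Rpl10, 44.0% for Rpl39 and 99.7% for Rps27.

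The genes with a pyrimidine run at the start were also compared by their change in mRNA level. The 21 genes with a run of at least 8 letters had median changes of -0.37 from MEFs to pre-iPSCs, 0.04 from pre-iPSCs to iPSCs and -0.15 from MEFs to iPSCs. The 55 other established subunits had medians of -0.23, -0.01 and -0.19. Translation was not measured.

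Genes that act with the ribosome were counted from lists chosen with earlier results of these data known. Of 15 genes of translation elongation and other TOP mRNAs, 0 were called in any comparison, and their median change from MEFs to iPSCs was 0.24 in the first table and -0.70 in the second, opposite in sign like that of the ribosomal protein genes. Eef1a1, the elongation factor that delivers aminoacyl-tRNA, was at 5874 and 7336 FPKM in the MEF libraries, 5973 and 6507 in those of pre-iPSCs, and 7515 and 4516 in those of iPSCs. The 5 ribosomal proteins outside the rule had medians of 0.78 and -0.92, with 0 called. In neither list did any gene have an unadjusted p below 0.05 by limma in any of the 3 comparisons.

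The medians of the 2 lists of ribosome assembly genes were above 0 in both tables from MEFs to iPSCs, while single genes differed. In that comparison 1279 of all 12401 genes tested were called higher and 1927 lower, so a few calls in a list are no result about it. Of 24 ribosome biogenesis genes, 2 were called higher in iPSCs than in MEFs and 0 lower, and the median change was 0.64 in the first table and 0.76 in the second. They were Dkc1, the pseudouridine synthase of snoRNPs, at 34.4 and 18.9 FPKM in MEFs and 62.2 and 66.2 in iPSCs (adjusted p = 0.0414, limma), and Rrp1b, at 11.8 and 4.01 and at 37.7 and 23.4 (adjusted p = 0.0123). Of 13 genes of RNA polymerase I and its factors, which transcribe the rRNA precursor, 2 were called higher and 0 lower, with medians of 0.73 in both tables. In that list Znrd1 was at 28.3 and 118 FPKM in MEFs and 123 and 51.9 in iPSCs, opposite in the tables, and Polr1d was at 146 and 245 and at 137 and 120, lower in both. In the other 2 comparisons limma called 0 genes of either list, with 3 and 1 biogenesis genes and 2 and 2 polymerase genes at an unadjusted p below 0.05.

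The called genes of that list were Polr1b, a core subunit, at 11.8 and 2.47 FPKM in MEFs and 20.1 and 16.7 in iPSCs (adjusted p = 0.0443, limma), and Taf1d, at 61.1 and 81.6 and at 173 and 175 (adjusted p = 0.0411). Of 76 mitochondrial ribosomal proteins, 1 (Mrps6, lower) was called from MEFs to pre-iPSCs and 0 from pre-iPSCs to iPSCs (3 at an unadjusted p below 0.05, limma), and 1 was called higher (Mrps5) and 2 lower (Mrps6 and Mrpl32) in iPSCs than in MEFs. Their median change was 0.52 in the first table and -0.70 in the second, opposite in sign like that of the cytoplasmic set. Over all genes tested, 16.4% were called from MEFs to pre-iPSCs, 8.62% from pre-iPSCs to iPSCs and 25.9% from MEFs to iPSCs.

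The chromatin files list nucleosomes called from uniquely mapped reads, each with its number of reads. Reads were counted here at the centre of the call and scaled to the unique reads of the library. The calls of H3 held between 67362868 and 108211816 reads per library and those of the marks between 12007350 and 15222040. Replicate 1 of pre-iPSCs and of iPSCs held the largest H3 totals and stood apart from the other H3 libraries at the genes described here.

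The depletion of nucleosomes at the start was measured as reads per bp from 150 bp before to 50 bp after the start over those in a flank from 1000 to 500 bp before it, summed over the 80 genes. For H3 this ratio was 0.28 and 0.35 in the MEF libraries, 0.43 and 0.16 in those of pre-iPSCs, and 0.23 and 0.21 in those of iPSCs. It was below 1 in every library, and the replicates of pre-iPSCs enclosed all the other values. The other genes in the highest 5% gave 0.28 and 0.31, 0.45 and 0.22, and 0.36 and 0.26, and the remaining genes gave 0.65 and 0.71, 1.32 and 0.63, and 0.95 and 0.65. As a median of the members' own ratios in place of summed reads, the value was 0.12 for MEFs, 0.03 for pre-iPSCs and 0.00 for iPSCs. In each library the ribosomal protein genes were thus at a lower ratio than the remaining genes, and both libraries of iPSCs lay below both of MEFs, while those of pre-iPSCs lay on either side of all 4. This difference was not tested. Between 50 and 293 reads in the depleted region stood behind each value.

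The +1 nucleosome, from 51 to 250 bp after the start, held 0.70 and 0.93 times the H3 reads per bp of the flank in the MEF libraries, 3.28 and 0.43 times in those of pre-iPSCs, and 3.01 and 0.71 times in those of iPSCs. Replicate 1 of pre-iPSCs and of iPSCs was more than 3 times its flank, and every other library was below its flank. The remaining genes gave 0.80 and 0.83, 2.22 and 0.72, and 1.74 and 0.83. The highest point of this nucleosome lay between 136 and 163 bp after the start in every library.

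**Figure D4:**
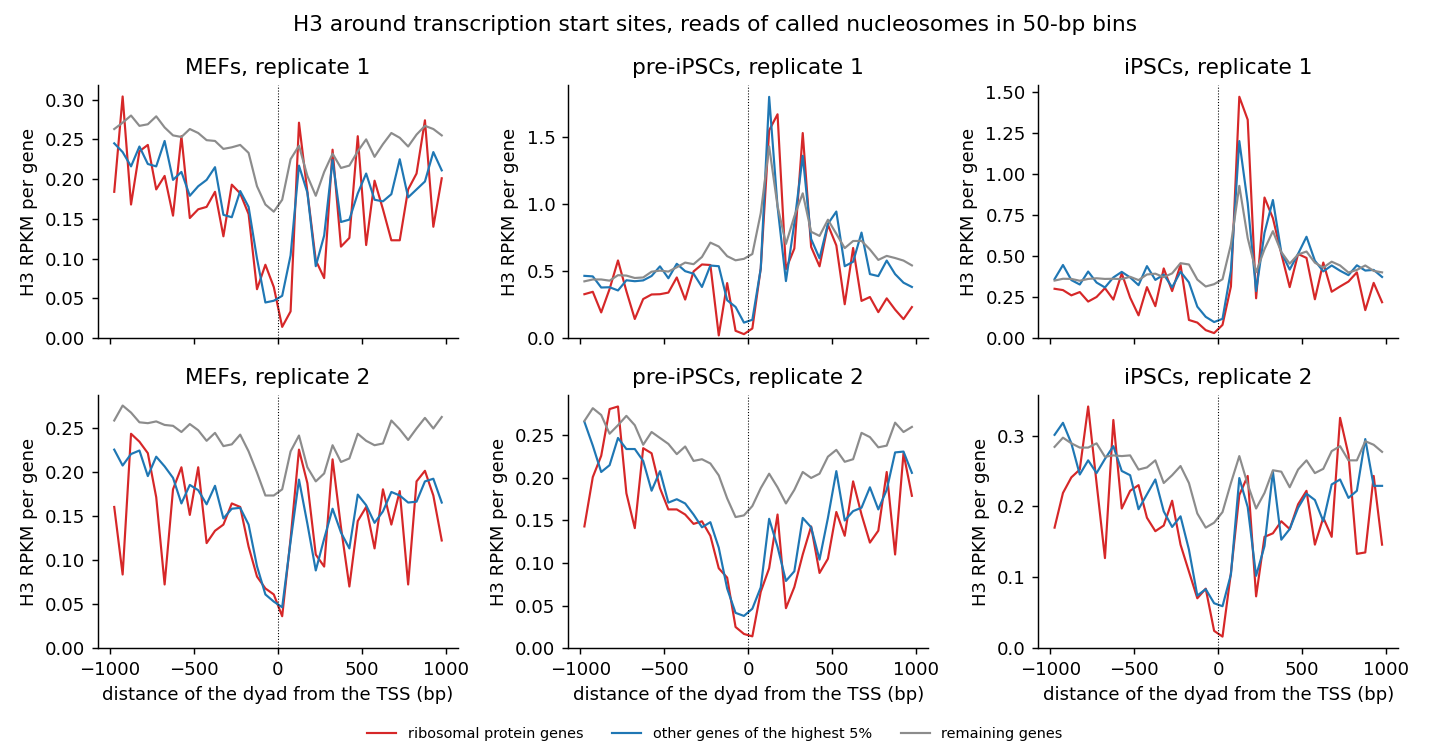
H3 reads of called nucleosomes per gene, as RPKM (scaled to bin length and to unique reads) in 50-bp bins from -1000 to 1000 bp around the start, for the ribosomal protein genes, the other genes of the highest 5% and the remaining genes, with 1 panel per library and its own vertical scale. The ribosomal protein genes dip at the start in all 6 panels, and a high +1 nucleosome stands in replicate 1 of pre-iPSCs and of iPSCs, at 3.28 and 3.01 times the flank.

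The calls of the +1 nucleosome had lower mean fuzziness at these genes than at the remaining genes. The fuzziness, which is the SD of the read positions in a call in bp, averaged 23.9 and 25.4 in the MEF libraries, 27.2 and 21.5 in those of pre-iPSCs, and 27.1 and 23.7 in those of iPSCs over the calls of at least 2 reads at ribosomal protein genes. At the remaining genes it averaged 28.6 and 29.3, 31.6 and 28.6, and 32.2 and 29.2. The ribosomal protein genes were lower in all 6 libraries, and the other genes in the highest 5% lay between, at 24.7 and 25.5, 30.4 and 24.2, and 30.0 and 26.0. The means of the ribosomal protein genes rest on 38 to 78 calls per library, with SDs between calls from 7.29 to 15.1 bp. Neither the differences nor the part of read number in them was tested.

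Promoter counts of H3 were taken within 500 bp of the start and tested with edgeR. Of 80 genes 78 passed the filter, and 0 were called in each of the 3 comparisons at an adjusted p below 0.05 (Benjamini-Hochberg over 18900 promoters), where 0% of all promoters were called. At an unadjusted p below 0.05, edgeR gave 0 from MEFs to pre-iPSCs, 0 from pre-iPSCs to iPSCs and 3 from MEFs to iPSCs (Rpl10l, Rpl23 and Rps27a), and DESeq2 gave 0, 0 and 1, with 0 past its adjusted threshold. The median promoter held 0.134 and 0.117 RPKM (reads scaled to the length of the window and to the unique reads of the library) for MEFs, 0.550 and 0.0992 for pre-iPSCs, and 0.424 and 0.135 for iPSCs, which is between 9.0 and 71.5 reads. Without replicate 2 of pre-iPSCs, edgeR called 228 of all promoters higher and 2903 lower from MEFs to pre-iPSCs and 1811 higher and 12 lower between pre-iPSCs and iPSCs, with Rps4x the 1 member called in each. Differences of the size of the gap between the replicates of pre-iPSCs were not detectable at this spread.

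H3K4me3, the mark of active and CpG-rich promoters, was present at most ribosomal protein genes. The median promoter of the set was at 2.10 and 1.59 RPKM in the MEF libraries, 1.35 and 1.04 in those of pre-iPSCs, and 1.61 and 1.12 in those of iPSCs. MEFs were above pre-iPSCs in both replicates, and replicate 1 was above replicate 2 in each cell type. The median change of the members against MEFs depended on the scaling, at -0.65 for pre-iPSCs and -0.40 for iPSCs when scaled to unique reads, and at -0.17 and -0.02 with the TMM factors used in the tests. The other genes in the highest 5% had medians of 1.96 and 1.53, 1.23 and 0.974, and 1.30 and 0.986, and the remaining genes 1.15 and 0.891, 0.797 and 0.714, and 0.930 and 0.789. A level above 1 RPKM was reached by 75 and 70 of the 80 genes in the MEF libraries. In those of pre-iPSCs 52 and 46 reached it, and in those of iPSCs 72 and 46. Of the other genes in the highest 5%, 90.5% and 82.5%, 67.6% and 49.9%, and 72.2% and 46.9% did so. Of the remaining genes, 54.7% and 45.9%, 39.4% and 29.8%, and 43.7% and 32.0% did. In replicate 1 of pre-iPSCs the ribosomal protein genes, at 65.0%, were below the other genes in the highest 5%. In every other library the share of the ribosomal protein genes was above that of both other groups.

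H3K4me3 sat on the +1 nucleosome of these genes. The reads per bp there were 2.99 and 2.96 times those of the flank in the MEF libraries, 2.27 and 1.81 times in those of pre-iPSCs, and 3.99 and 2.63 times in those of iPSCs. At the remaining genes they were 1.93 and 1.85, 1.70 and 1.32, and 2.08 and 1.50 times. The ribosomal protein genes were higher in all 6 libraries, and also above the other genes in the highest 5%, at 2.12 and 2.05, 1.81 and 1.34, and 2.44 and 1.60.

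**Figure D5:**
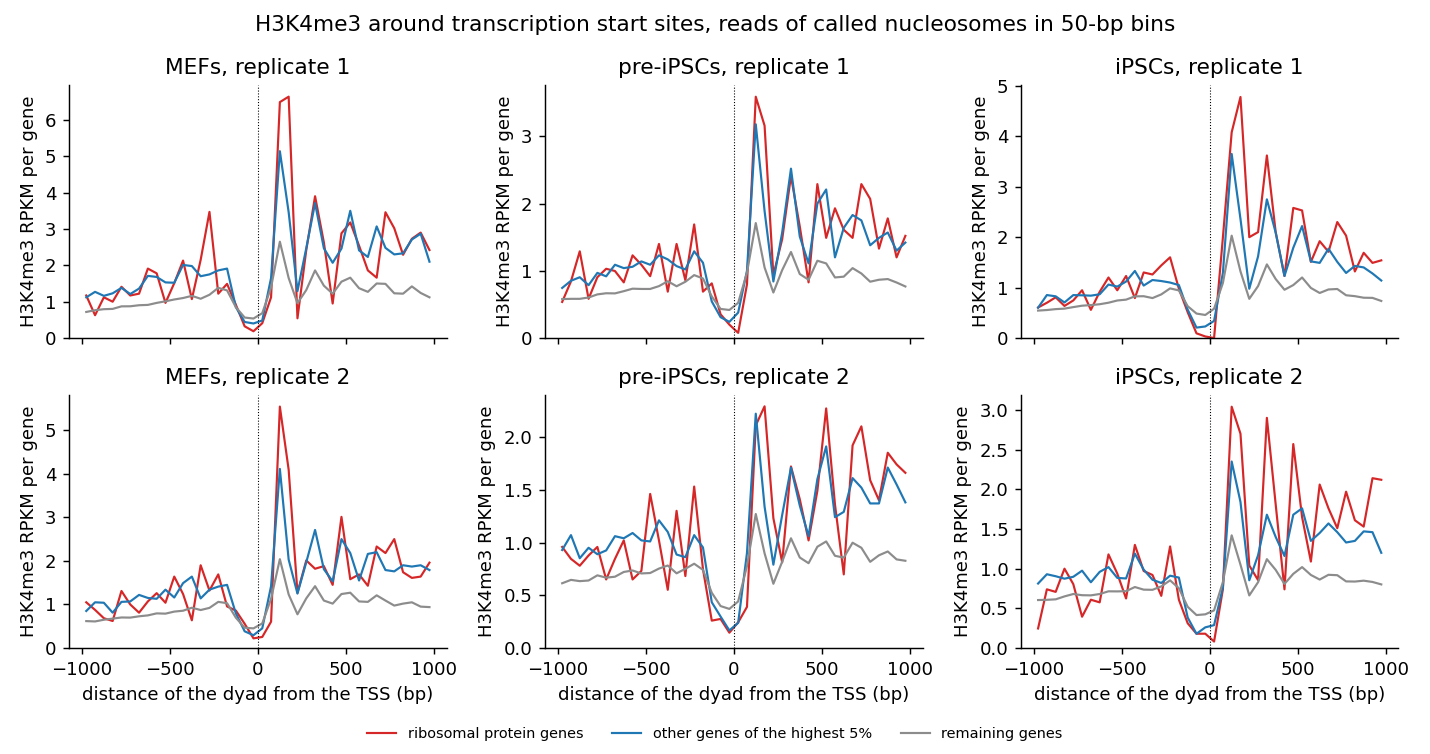
H3K4me3 reads of called nucleosomes per gene, as RPKM (scaled to bin length and to unique reads) in 50-bp bins from -1000 to 1000 bp around the start, for the same 3 groups of genes, with 1 panel per library and its own vertical scale. The ribosomal protein genes peak after the start in all 6 panels, with +1 values of 2.99 and 2.96 times the flank for MEFs, 2.27 and 1.81 for pre-iPSCs, and 3.99 and 2.63 for iPSCs.

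The promoters with the highest H3K4me3 by the mean over all libraries were those of Rpl18, Rpl9 and Rpl35a. In single libraries other members could be highest, as Rps27a was at 4.20 RPKM in replicate 1 of MEFs. Rpl18 was at 3.99 and 1.97 RPKM in the MEF libraries, 2.21 and 1.23 in those of pre-iPSCs, and 3.66 and 2.37 in those of iPSCs. Rpl9 was at 3.86 and 2.61, 2.70 and 1.43, and 2.61 and 1.91, and Rpl35a at 3.52 and 2.29, 2.14 and 1.23, and 3.47 and 2.17. Rpl9 and Rpl35a each have another gene start within 1000 bp, so their windows hold nucleosomes of both.

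By the mean over all libraries, the lowest H3K4me3 was at 3 of the paralogs. In single libraries other members could lie lower, as Rpl37a at 0.263 RPKM did against Rpl39l in replicate 2 of iPSCs. Rpl10l was at 0.271 and 0.191 RPKM in the MEF libraries, 0.184 and 0.195 in those of pre-iPSCs, and 0.372 and 0.197 in those of iPSCs, or 3 to 6 reads in each library. Rpl39l was at 0.338 and 0.636, 0.674 and 0.389, and 1.30 and 0.658 RPKM, or 5 to 21 reads. For neither gene did the 2 libraries of iPSCs both stand clear of every library of the other cells, while their mRNAs did.

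Tests of H3K4me3 counts used 79 genes and 14874 promoters. From MEFs to pre-iPSCs edgeR called 0 higher and 2 lower, Rpl7a and Rpl34, where 1.53% of all promoters were called higher and 0.323% lower. That split turned with the scaling, from 228 higher and 48 lower to 27 and 169 when scaled to unique reads, where both genes were still called. Rpl7a had 40 and 47 reads in the MEF libraries, 15 and 12 in those of pre-iPSCs, and 19 and 19 in those of iPSCs, with both libraries of pre-iPSCs below both of MEFs. The change was -1.28 (adjusted p = 0.0336, edgeR quasi-likelihood with Benjamini-Hochberg).

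Rpl34 had 35 and 40 reads in the MEF libraries, 13 and 10 in those of pre-iPSCs, and 26 and 23 in those of iPSCs, with no overlap between the cell types. The change from MEFs to pre-iPSCs was -1.30 (adjusted p = 0.0444, edgeR). Both promoters also hold the start of a neighbour, Med22 and Rpl34-ps1. Both calls were lost with DESeq2 (0 called, 4 at an unadjusted p below 0.05), which called 3 of all 14874 promoters where edgeR called 228 higher and 48 lower. They were also lost when the window reached 1000 bp and with calls of at least 2 reads, and that of Rpl34 was lost with the replicate block (adjusted p = 0.0575, edgeR). Without any 1 of the 4 libraries of MEFs and pre-iPSCs, 0 were called. At the level of mRNA, neither Rpl7a (0.23) nor Rpl34 (-0.49) passed the test from MEFs to pre-iPSCs. The FPKM of Rpl34 and Rpl34-ps1 together changed by 0.98 in the first table and -0.62 in the second.

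From pre-iPSCs to iPSCs 0 were called by edgeR, where 0% of all promoters were, and 7 were higher and 0 lower at an unadjusted p below 0.05. The share of all promoters at that unadjusted threshold was not counted, so no shift of the set can be read from it. DESeq2 called 0, with 3 at an unadjusted p below 0.05. From MEFs to iPSCs edgeR called Rpl3l higher and Rps27a lower, against 4.85% and 1.18% of all promoters. Scaled to unique reads, the split over all promoters turned from 722 higher and 176 lower to 141 and 249.

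Rpl3l had 4 and 6 reads of H3K4me3 in the MEF libraries, 10 and 9 in those of pre-iPSCs, and 19 and 13 in those of iPSCs. The cell types followed each other without overlap, and the change from MEFs to iPSCs was 1.97 (adjusted p = 0.0183, edgeR). With so few reads in MEFs, this promoter passed the filter on low counts through the other libraries, so its call is given as a description. The call was lost with calls of at least 2 reads (adjusted p = 0.0595) and when scaled to unique reads (adjusted p = 0.0749, edgeR). The mRNA of Rpl3l was also higher in iPSCs, the libraries through which alone it passed the filter on expression. Rps27a had 62 and 35 reads, 29 and 21, and 16 and 16, again without overlap, and a change of -1.25 (adjusted p = 0.0141, edgeR). Its mRNA changed by -0.88 and did not pass, and the start of 1700034F02Rik lies in its window. DESeq2 called 0 of the 79 in this comparison (2 at an unadjusted p below 0.05), and without replicate 1 of MEFs edgeR called 0. DESeq2 called 2 of all promoters here. Without replicate 1 of iPSCs neither gene was called (adjusted p = 0.183 for Rpl3l and 0.169 for Rps27a, edgeR), and Rpl7 was called instead. Without replicate 2 of iPSCs Rps27a was called and Rpl3l was not (adjusted p = 0.0736). With a window to 1000 bp, both were called, together with Rpl39l.

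H3K27me3, which marks repressed promoters, was low at these genes. The median promoter of the set was at 0.0606 and 0.0529 RPKM in the MEF libraries, 0.112 and 0.0611 in those of pre-iPSCs, and 0.115 and 0.0596 in those of iPSCs, or 1.0 to 2.0 reads, against 0.182 and 0.212, 0.225 and 0.183, and 0.230 and 0.239 RPKM at the remaining genes. The other genes in the highest 5% had the same medians as the ribosomal protein genes in every library. No ribosomal protein gene exceeded 1 RPKM in any library, and at most 3.37% of the remaining genes and 0.321% of the other genes in the highest 5% did. Rpl3l was the only 1 of the 80 to pass the filter of the test, which kept 4436 promoters. It had 14 and 18 reads in the MEF libraries, 10 and 14 in those of pre-iPSCs, and 8 and 11 in those of iPSCs.

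The changes of H3K27me3 at Rpl3l were -0.32, -0.30 and -0.61 in the 3 comparisons and none passed (adjusted p from 0.526 to 0.926, edgeR). None had an unadjusted p below 0.05 by edgeR or by DESeq2. Of all promoters tested, 2.32% were called from MEFs to pre-iPSCs, 0.0902% from pre-iPSCs to iPSCs and 3.94% from MEFs to iPSCs, in either direction. H3K9me3, measured in 1 library per cell type and so without a replicate check, had medians of 0.131 RPKM for MEFs, 0.125 for pre-iPSCs and 0.198 for iPSCs, against 0.197, 0.187 and 0.265 at the remaining genes. These medians are only 2.0, 2.0 and 3.0 reads per promoter, against 3.0, 3.0 and 4.0. The other genes in the highest 5% again had the same medians as the set. No ribosomal protein gene exceeded 1 RPKM of H3K9me3, and only 0.371%, 0.240% and 0.517% of the remaining genes did in MEFs, pre-iPSCs and iPSCs.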

How the data were processed

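Per the study's methods, the authors mapped ChIP-seq reads to mm9, shifted the uniquely placed ones to the dyad and ran GeneTrack to call nucleosomes. For each call the deposited files give a count of reads and a score, its fuzziness in bp. RNA-seq reads were aligned with TopHat, those placed uniquely were kept, and the authors deposited FPKM from Cufflinks. The submitters' processing notes name Bowtie 1.0.1, TopHat2 2.0.4, Cufflinks 2.0.2 and mm9. RefSeq starts in the tables were taken as counted from 0, since start + 1 met a GENCODE start for 6443 of 10067 plus-strand genes and the start as given for 158.

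FPKM was tested with limma 3.58.1 (trend, table as a term) on log2(FPKM + 1), leaving out genes whose mean was under 0.5 FPKM. Promoter reads were tested with edgeR 4.0.16 (quasi-likelihood after filterByExpr and TMM), with DESeq2 1.42.0 as an alternative. Both tests were checked on simulated data. Analyses were run in R 4.3.3 and in Python 3.11.15 with pysam 0.24.0, pandas 2.3.3, numpy 2.4.6 and scipy 1.17.1.

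The genes, lists and named genes were chosen with earlier results of these data known. Named were the members called in any test, the 5 highest and 5 lowest by expression, those listed at 0, the paralogs with their counterparts, a list of genes with known roles, and the 3 highest and 3 lowest in H3K4me3. Some of these are not reported here. Members with TATAA or a neighbouring start were named after their values were seen. Other scalings, filters, windows, tools and left-out libraries were tried, and a GC correction was added after seeing the data.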

Additional observations from a re-analysis of the deposited data

How the results depend on the processing

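The median promoter held 9.0 to 71.5 reads of H3 and 16.0 to 31.0 of H3K4me3, and the part of depth in the chromatin tests was not tested. Without a filter on low values, 0, 1 and 1 members were called in pre-iPSCs against MEFs, iPSCs against pre-iPSCs and iPSCs against MEFs, where the number of genes tested is larger. Quantile normalization gave 2 in pre-iPSCs against MEFs (Rpl3 and Rpl39l). The median change of members turned to 0.20 and 0.31 under TPM and to 0.23 and 0.26 under quantile normalization in pre-iPSCs and iPSCs against MEFs, and the cause was not tested. Over fits without 1 library, the calls ranged from 0 to 2, 1 to 3 and 1 to 5, and the medians from -0.73 to 0.29, -0.6 to 0.7 and -0.84 to 0.45 (-0.07 without replicate 1 of pre-iPSCs and 0.32 without replicate 2 of MEFs).

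For H3K4me3 in pre-iPSCs against MEFs, 0 members were called with DESeq2, with calls of at least 2 reads and with a window to 1000 bp, 4 when scaled to unique reads, and 0 to 2 without 1 library. In iPSCs against MEFs the counts were 0 with DESeq2, 1 with calls of at least 2 reads (Rps27a), 3 with a window to 1000 bp (Rpl39l, Rpl3l and Rps27a), 1 when scaled to unique reads, and 0 to 2 without 1 library. For H3 they were 0 to 1 without 1 library in the comparisons with pre-iPSCs. H3K27me3 calls stayed at 0.

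Same-numbered samples did not deviate together in every pair of cell types (correlations of -0.20 to 0.35 for RNA, -0.06 to 0.12 for H3K4me3, and -0.02, 0.01 and 0.72 for H3, the last between pre-iPSCs and iPSCs). The replicate block left 1 H3K4me3 call in pre-iPSCs against MEFs (Rpl7a), and dropping it from the expression fit left 3 calls in iPSCs against MEFs.

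The H3 depletion ratio, 0.32, 0.30 and 0.22 in the order MEFs, pre-iPSCs and iPSCs, was 0.12, 0.03 and 0.00 as a median of the members' own ratios, 0.24 in MEFs and 0.17 in iPSCs with a flank farther upstream, and 0.18 in iPSCs with calls of at least 2 reads. Its range without 1 library was 0.28 to 0.35, 0.16 to 0.43 and 0.21 to 0.23. The H3K4me3 level became 2.27 in MEFs and 1.48 in pre-iPSCs when scaled to the reads in calls, and ranged from 1.59 to 2.1, 1.04 to 1.35 and 1.12 to 1.61 without 1 library.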
